A study of Mus musculus with 12 samples.

Results

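Described here are the 156 mouse genes whose symbol is Zfp followed by a number and nothing else, where Zfp stands for zinc finger protein. Every probe set whose single gene symbol on the array had this form was taken, Zfp36 was left out because its protein is of another type, and 231 probe sets were found. For each gene the probe set of highest mean log2 intensity over all arrays was kept, and a set with the suffix _x_at, which can bind transcripts of several genes, was used only where there was no other. The 156 genes are part of 12393 genes on 22626 probe sets, and neither treatment nor genotype entered their choice.

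Spleen RNA was measured in 12 mice, with 1 Affymetrix MOE430A 2.0 array per mouse and 3 mice in each of 4 groups. Wild-type mice (DUSP1+/+) and mice lacking DUSP1 (DUSP1-/-) were either left untreated, as controls, or sampled 6 h after an intraperitoneal injection of 10 µg of E. coli lipopolysaccharide (LPS) per g body weight. LPS is a cell wall component of bacteria that drives a whole-body inflammatory response, and DUSP1 is a phosphatase that switches off MAP kinases. The strain, age and sex of the mice, and how the allele was made, are not given in the sources used here.

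In a classical zinc finger, a zinc ion held by cysteines and histidines folds a short loop that reads a few bases of DNA, and proteins with rows of such fingers can recognise long sequences. Many genes named Zfp encode KRAB zinc finger proteins, which bring the co-repressor Trim28 and the histone methyltransferase Setdb1 to transposons and other targets. Others have separate duties, among them ribosome quality control (Zfp598), ribosome assembly (Zfp593), spindle assembly (Zfp207), imprinting (Zfp57) and the splicing that lets B cells make IgD (Zfp318).

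The values are linear array intensities, and those of different genes are not comparable with each other because each probe set binds with its own efficiency. The mean intensity of 77 of the 156 (49.36%) lay above a dim limit of 30.49, the 40th percentile of the probe sets, against 65.35% of all genes. The remaining 79 are kept in every count below, and compression of changes at such signals was not tested.

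Several arrays stood apart. Pancreas transcripts were high on wild-type control 1, knockout control 1 and knockout control 3, and red cell precursor transcripts on knockout control 1 and wild-type control 2. Liver transcripts were highest on knockout control 2, knockout LPS 2 and knockout LPS 3 (mean log2 intensity 9.32, 8.77 and 8.02), with 7.90 on wild-type LPS 2. Lung transcripts were high on knockout control 2, knockout control 3, knockout LPS 1 and knockout LPS 3 (6.95, 6.51, 6.80 and 6.09). They lay at 4.39 to 5.32 on the other arrays, which include every wild-type array. Their part in the genotype comparisons was not tested. Wild-type controls 2 and 3 had Xist intensities of 35 and 47, against 1101 to 3949 on the other arrays. They were the only arrays with Eif2s3y, from the Y chromosome, above 10, and are called male-pattern arrays below. No LPS array and no knockout array had this pattern. It was thus not balanced in the wild-type LPS comparison or between the genotypes' controls, and the part of sex in these was not tested. Dusp1 itself read 479, 1354 and 627 in wild-type controls, 2248, 2142 and 2116 in wild-type LPS mice, 677, 1528 and 1443 in knockout controls and 4963, 2948 and 4996 in knockout LPS mice. It was thus not lower in mice labelled knockout, and since the part of Dusp1 its probes cover relative to the deletion is not given in the sources used here, this signal does not check the genotype labels. Genotypes below are those of the labels.

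In wild-type spleen, 3 Zfp genes fell and 1 rose after LPS at an adjusted p under 0.05 in limma, which is 1.92% and 0.641% of the 156. Over all genes 4.16% fell and 3.93% rose. In knockout spleen 13 fell (8.33%, against 9.71% of all genes) and 1 rose (0.641%, against 5.54%). With the changes of both genotypes averaged, 20 fell (12.8%, against 14.3%) and 3 rose (1.92%, against 8.52%). The share of falling Zfp genes was thus near or below the background in each comparison, and the share of rising ones was several times below it.

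The genes called in both genotypes were Zfp521, Zfp82 and Zfp532, and all 3 fell. Zfp521 encodes a many-fingered cofactor of blood progenitors and mesenchymal precursors that counteracts the B cell factor Ebf1. The 3 untreated wild-type mice gave intensities of 35, 46 and 42 and the wild-type LPS mice 15, 17 and 10. The untreated knockouts gave 39, 55 and 28 and the knockout LPS mice 13, 14 and 14. All 6 LPS arrays lay below all 6 control arrays. The fall was 2.98-fold in wild-type (log2 change -1.58, SE 0.26, limma adjusted p = 0.00606) and 2.87-fold in knockout (log2 change -1.52, SE 0.26, limma adjusted p = 0.0041). Its mean intensity over the 12 arrays, 23.4, lay below the dim limit. In bulk spleen RNA, fewer cells of a type and less RNA per cell cannot be told apart.

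Zfp82, a KRAB zinc finger gene, gave 50, 61 and 49 without treatment and 29, 21 and 21 after LPS in wild-type mice. In knockouts the values were 29, 41 and 63 before and 20, 16 and 18 after. The groups did not overlap in either genotype, and the log2 changes were -1.18 and -1.23 (SE 0.26 for both, limma adjusted p = 0.0237 and 0.0119). With the replicate number as a block, the wild-type call of Zfp82 was lost (adjusted p = 0.0505). Zfp532, whose human counterpart is fused to NUTM1 in some carcinomas, read 66, 47 and 72 in wild-type controls against 35, 34 and 27 after LPS. Its knockout values were 57, 57 and 65 against 39, 32 and 33, again without overlap. The log2 changes were -0.93 and -0.79 (SE 0.19 for both, limma adjusted p = 0.0166 and 0.0229). Its wild-type call was lost under 6 of 25 alternatives. The knockout call of Zfp532 was lost under 8 of 25 alternatives, among them every array shifted to the same median (log2 change -0.57, adjusted p = 0.126), quantile normalization (0.0999), cyclic loess (0.0642) and an intensity trend with a robust prior (0.0596). Leaving out wild-type controls 2 and 3, the pair with low Xist, keeps 1 wild-type control, which is then assumed to vary like the other groups. The wild-type calls of all 3 genes ended there, with adjusted p-values of 0.112 for Zfp521, 0.194 for Zfp82 and 0.0526 for Zfp532. The log2 changes stayed at -1.36, -1.10 and -1.05.

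**Figure D1:**
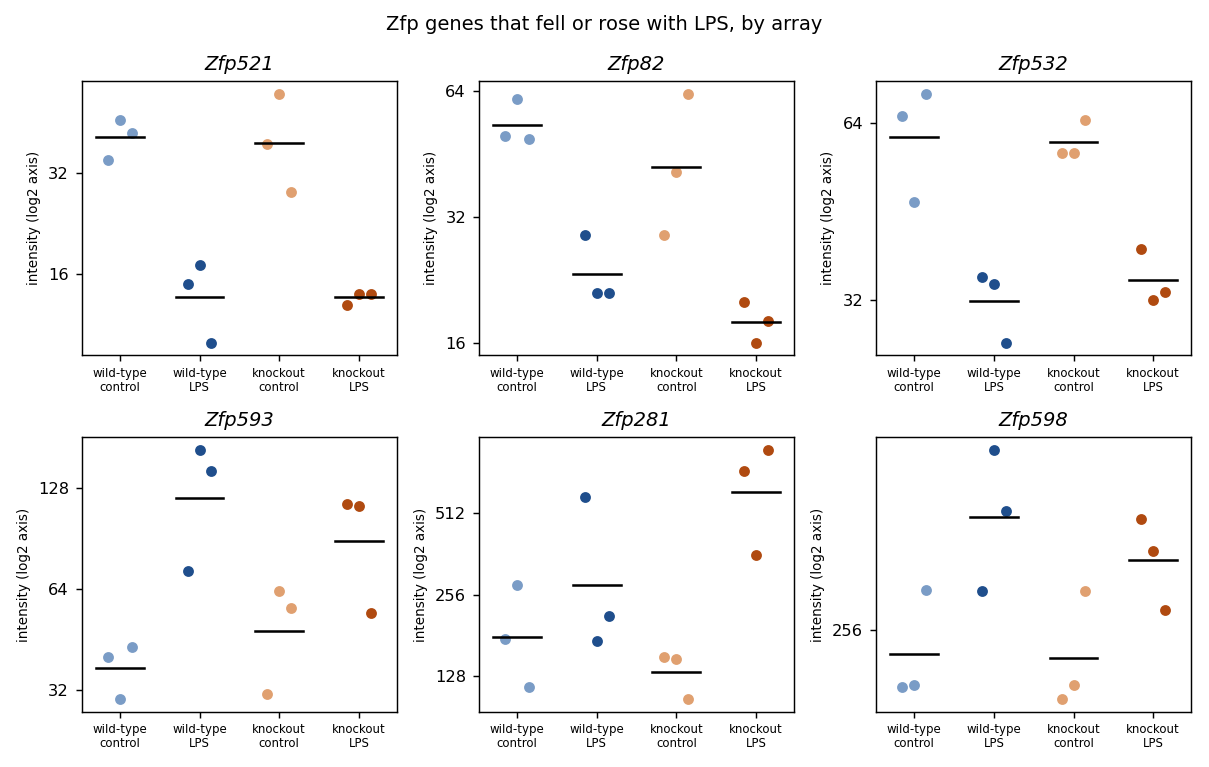
Intensity (log2 axis) of 6 Zfp genes on each of the 12 arrays, with 1 point per mouse and a bar at the geometric mean of each group of 3. Zfp521, Zfp82 and Zfp532 lie lower after LPS in both genotypes without overlap, and Zfp281 reaches 360 to 882 in knockout LPS mice against 105 to 150 in knockout controls.

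With the chosen probe sets, only 3 genes were called higher in any LPS comparison. Zfp593, the homologue of a yeast factor that accompanies new large ribosomal subunits out of the nucleus, gave 40, 30 and 43 without treatment and 72, 166 and 143 after LPS in wild-type mice. It was 31, 63 and 56 in knockout controls and 114, 113 and 54 after LPS, so the knockout groups overlapped. The log2 change was 1.68 in wild-type (SE 0.40, limma adjusted p = 0.0315) and 0.89 in knockout (SE 0.40, limma adjusted p = 0.196), and the difference between them was not called (limma interaction adjusted p = 1.0). Its call in wild-type ended on leaving out any of the 3 wild-type controls, or LPS array 2 or 3 of the same genotype, with adjusted p-values between 0.0545 and 0.137.

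Zfp281 encodes a factor that binds GC-rich promoters and acts in embryonic stem cells leaving pluripotency. It read 150, 148 and 105 in knockout controls and 738, 360 and 882 after LPS, a 4.65-fold rise (log2 change 2.22, SE 0.49, limma adjusted p = 0.0146). In wild-type mice it was 175, 278 and 116 before and 587, 172 and 214 after, so that only wild-type LPS 1 stood above the controls (log2 change 0.65, SE 0.49, limma adjusted p = 0.579). The interaction was 1.57 (SE 0.70) and was not called (limma adjusted p = 0.915). The second probe set of Zfp281 was also called higher in knockouts, with a log2 change of 1.87. The knockout call was lost without knockout control 3, knockout LPS 1 or knockout LPS 3, at adjusted p-values of 0.052, 0.063 and 0.0626, and at 0.139 without the 3 controls that carried pancreas transcripts, which leaves knockout control 2 as the only knockout control.

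Zfp598, the ubiquitin ligase that marks collided ribosomes, was called only with the genotypes averaged. It read 210, 211 and 295 in wild-type controls, 294, 483 and 389 after LPS, 201, 211 and 294 in knockout controls and 378, 338 and 275 after LPS. In both genotypes the lowest LPS value lay below the highest control value. The averaged log2 change was 0.60 (SE 0.17, limma adjusted p = 0.0314), and this call was lost under 12 of 25 alternative analyses.

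The 10 genes that were called lower in knockout and not in wild-type were Zfp61, Zfp84, Zfp235, Zfp276, Zfp467, Zfp672, Zfp707, Zfp764, Zfp790 and Zfp954, with log2 changes from -0.75 (Zfp235) to -1.58 (Zfp954). None had a called interaction, so they are not shown to differ between genotypes. The call ended under 18 of 25 alternatives for Zfp764, 16 each for Zfp235 and Zfp707, 12 of 24 for Zfp467, 11 of 24 for Zfp61, 11 of 25 for Zfp954 and 9 for Zfp790. It ended under 5 for Zfp276, 4 for Zfp672 and 1 for Zfp84. Zfp84 read 55, 101 and 81 in knockout controls and 31, 33 and 38 after LPS, and 85, 70 and 62 against 57, 43 and 57 in wild-type mice. Both pairs of groups were apart, by -1.18 (SE 0.23, limma adjusted p = 0.00856) in knockouts and by -0.47 (SE 0.23, limma adjusted p = 0.328) in wild-type. Its chosen probe set ends in _s_at, a suffix for sets that can bind related transcripts, and its other probe set changed by 0.13 in knockouts. With both averaged, the call was lost (adjusted p = 0.158).

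Zfp467 acts in the choice of marrow stromal cells between bone and fat. Its values were 20, 34 and 55 in knockout controls and 13, 14 and 15 after LPS, and 20, 29 and 41 against 15, 18 and 18 in wild-type mice. Groups were apart in both genotypes, and its 2 probe sets were both called in knockouts (log2 changes -1.26 and -1.21, SE 0.34 for the chosen one, limma adjusted p = 0.036). Zfp276 read 78, 163 and 166 in knockout controls and 60, 44 and 54 after LPS (log2 change -1.30, SE 0.32, limma adjusted p = 0.0252). In wild-type it read 81, 97 and 146 against 59, 70 and 92, with overlap.

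Zfp672 gave 41, 81 and 80 without treatment and 56, 61 and 60 after LPS in wild-type mice. In knockouts it read 93, 70 and 60 against 42, 26 and 20, and the log2 change was -1.39 (SE 0.32, limma adjusted p = 0.0177) against -0.12 (SE 0.32) in wild-type. The interaction of -1.26 (SE 0.46) was not called (limma adjusted p = 0.791). Zfp235 was also called in knockouts alone, with 54, 39 and 63 against 42, 52 and 55 in wild-type and 53, 74 and 50 against 35, 35 and 34 in knockouts (limma adjusted p = 0.0464), and its averaged change was not called.

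Knockout control 2 held the top value in several of these genes. Zfp954 read 27, 122 and 56 in knockout controls and 20, 15 and 23 after LPS, and Zfp790 read 50, 146 and 63 against 30, 28 and 27. The highest of the 6 values was on knockout control 2 in both, and both calls were lost without it, at log2 changes of -1.03 for Zfp954 (adjusted p = 0.0746) and -0.99 for Zfp790 (0.0877). They were lost too without knockout control 3 (0.0859 and 0.0566) or any 1 of the knockout LPS arrays (0.0719 to 0.107). The count of falls in knockout, 13 with all arrays, was 5 without knockout control 2, 3 without knockout LPS 3 and 20 without knockout control 1. Without the 3 controls with pancreas transcripts it was 29, but that fit keeps 1 knockout control, the same knockout control 2, which is then assumed to vary like the other groups. The 3 falls in wild-type became 1 when wild-type control 1 or wild-type LPS array 3 was left out, and 9 when wild-type control 3 was.

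Averaging the genotypes added 8 falls that neither genotype gave alone, in Zfp14, Zfp87, Zfp101, Zfp395, Zfp524, Zfp623, Zfp825 and Zfp932. The call was lost under 18 of 24 alternatives for Zfp14, 17 of 25 each for Zfp623 and Zfp932, and 15 of 24 for Zfp101. It was lost under 14 of 25 for Zfp524, 7 of 25 for Zfp87, 2 of 24 for Zfp825 and 1 of 24 for Zfp395. The mean intensity of Zfp14 was 12.6. Zfp395, whose human counterpart was named for binding the huntingtin gene promoter, read 27, 26 and 36 against 18, 17 and 15 in wild-type and 21, 54 and 34 against 16, 19 and 20 in knockouts. Neither genotype's groups overlapped, and the averaged log2 change was -0.85 (SE 0.21, limma adjusted p = 0.0147). Zfp825 read 49, 43 and 28 against 28, 16 and 15 in wild-type and 36, 20 and 28 against 13, 17 and 16 in knockouts (averaged log2 change -0.94, SE 0.22, limma adjusted p = 0.0115). Zfp61, called in knockouts too, read 37, 25 and 34 before and 18, 17 and 23 after LPS in wild-type mice, and 22, 41 and 31 before and 17, 17 and 16 after in knockouts. Its averaged fall of -0.79 (SE 0.17, limma adjusted p = 0.00759) was, with those of Zfp82, Zfp521 and Zfp532, called under every one of the alternatives that could be fitted for it.

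The promoters of 3 of these genes are given as the RefSeq GRCm38.p6 sequence from 250 bases before to 50 bases after the transcription start, 5′ to 3′ on the gene's strand. Zfp82 and Zfp84 are shown because they fell and lie in the same zinc finger cluster, and Zfp281 because its rise in knockouts was the largest among the Zfp genes. Capitals mark a match to a searched motif. Zfp82 (chr7:30072774-30073073, minus strand) holds the NRF1 letters. Zfp84 (chr7:29768302-29768601, plus strand) holds NF-kB letters, overlapping on both strands, and the letters TATAAA. Zfp281 (chr1:136624651-136624950, plus strand) holds none of the searched motifs.
Zfp82: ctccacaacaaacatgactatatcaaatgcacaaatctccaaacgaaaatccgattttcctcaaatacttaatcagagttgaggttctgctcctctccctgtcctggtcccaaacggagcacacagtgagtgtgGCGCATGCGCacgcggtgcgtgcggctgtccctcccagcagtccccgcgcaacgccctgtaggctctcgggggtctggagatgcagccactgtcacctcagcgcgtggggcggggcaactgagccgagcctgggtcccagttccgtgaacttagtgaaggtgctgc
Zfp84: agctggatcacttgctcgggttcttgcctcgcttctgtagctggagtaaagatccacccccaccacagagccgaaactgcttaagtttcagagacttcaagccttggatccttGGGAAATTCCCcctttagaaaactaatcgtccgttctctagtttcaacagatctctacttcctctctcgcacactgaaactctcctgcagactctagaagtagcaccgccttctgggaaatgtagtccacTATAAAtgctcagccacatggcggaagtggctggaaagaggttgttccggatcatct
Zfp281: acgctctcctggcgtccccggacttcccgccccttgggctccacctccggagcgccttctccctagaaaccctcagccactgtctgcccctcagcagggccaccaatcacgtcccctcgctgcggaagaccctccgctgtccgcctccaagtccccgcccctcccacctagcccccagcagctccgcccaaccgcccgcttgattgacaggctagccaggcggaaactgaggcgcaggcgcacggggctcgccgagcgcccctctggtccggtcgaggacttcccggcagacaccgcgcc

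RefSeq promoters were found for 126 of the 156 genes, 154 promoters in all, and 15 of the genes called with LPS were among them. Searched on both strands, the ETS letters CCGGAAG stood in 18.8% of the Zfp promoters, against 11.6% of all protein-coding promoters of the same length. The palindromic NRF1 site stood in 3.9% (6 promoters) against 1.33%, and the SBF site, bound by Zfp143, in 3.25% (5 promoters) against 1.46%. Among motifs of inflammatory factors, the NF-kB site stood in 1.95% (3 promoters) against 1.44% and the AP-1 letters TGANTCA in 4.55% (7) against 6.99%. The interferon response element (ISRE) stood in 1.95% (3) against 3.35% and the cyclic AMP response letters TGACGTCA in 0.649% (1) against 2.23%. TATAAA stood in 7.14% against 12.6%, and the E-box CACGTG in 7.14% against 7.84%. The median promoter held 16 CpG dinucleotides against 13. These are counts of letters only, and a gene with several promoters counts more than once.

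Beyond the called genes, the 156 leaned lower as a body. Their median log2 change with LPS was -0.17 in wild-type and -0.24 in knockout, against -0.03 and -0.06 over all genes. In wild-type 108 of them lay below 0 (69.2%, against 52.7% of all genes), and in knockout 116 did (74.4%, against 55.8%). Among the 77 above the dim limit, the medians were -0.23 and -0.46, against -0.10 and -0.21 for the genes above it. Both changes were negative for 92 genes, both positive for 24 and of opposite or no sign for 40. Over the 156 genes the 2 changes, which share no arrays, had a Pearson correlation of 0.692 and a Spearman correlation of 0.657, as a description across genes that share arrays within each comparison (over all genes, 0.801 and 0.700).

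**Figure D2:**
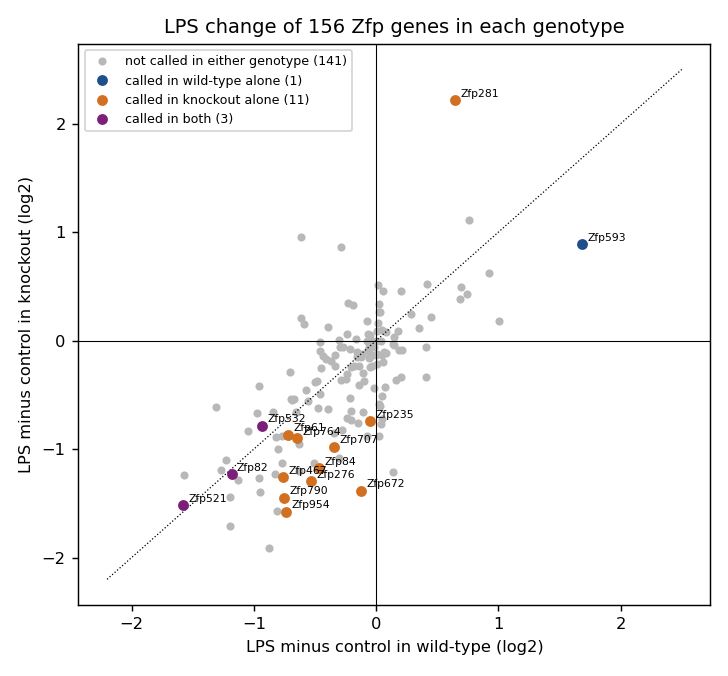
Log2 change with LPS in wild-type (x axis) and in knockout (y axis) for the 156 Zfp genes, with 1 point per gene, colours for the comparison in which limma called it and a dotted line of equal change. Most points lie below 0 on both axes, and the highest ones are Zfp281 in knockout and Zfp593 in wild-type.

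With every array shifted to the same median, the median change of all probe sets in wild-type was 0.10 in place of -0.02, and in knockout 0.17 in place of -0.05. The Zfp medians moved with it, to -0.05 and -0.03. The calls in knockout then numbered 7 lower and 3 higher, and the averaged calls 13 and 5. With cyclic loess they numbered 8 and 2 in knockout and 14 and 5 averaged.

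In wild-type, 17 genes had all LPS values below all control values (10.9%, against 14.8% of all genes) and 1 had all above (0.641%, against 10.2%). In knockout 43 were below (27.6%, against 17.6%) and 4 above (2.56%, against 11.3%). The 4 were Zfp106, Zfp281, Zfp703 and Zfp777. The values of Zfp genes were also more spread in untreated mice than after LPS. The median within-group SD on the log2 scale was 0.35 in wild-type controls and 0.41 in knockout controls, and 0.27 and 0.22 after LPS. Over all genes it was 0.31, 0.36, 0.25 and 0.23.

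A shared order of arrays ran through many of the genes. It was seen in their values and then counted. In 36 of the 156 (23.1%, against 8.52% of all genes), wild-type control 3 was the lowest wild-type control, wild-type LPS 1 the highest wild-type LPS array and knockout control 2 the highest knockout control. In 20 of these, wild-type control 3 lay at least 2-fold below the other wild-type controls and wild-type LPS 1 more than 1.5-fold above the other wild-type LPS arrays. Zfp638, whose human counterpart silences unintegrated retroviral DNA, read 267, 217 and 33 in wild-type controls, 116, 25 and 25 after LPS, 81, 112 and 63 in knockout controls and 34, 30 and 43 after LPS. Zfp871 read 494, 675 and 205, then 416, 100 and 117, then 311, 972 and 277, then 185, 128 and 296. Zfp292, Zfp386, Zfp148 and Zfp24 followed the same order.

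The 36 genes with this order had median changes of -0.53 in wild-type and -0.56 in knockout. Of them 1 was called in knockout (2.78%) and 3 with the genotypes averaged (8.33%). They were picked by the same array values that give these changes, so their medians and calls, and those of the remaining genes, are a description only. Of the 1056 genes on the array with this order, 15.2% were called in knockout and 24.3% averaged, with median changes of -0.33 and -0.36. Zfp932 is an example. It read 122, 141 and 23 before and 45, 27 and 27 after LPS in wild-type mice, and 50, 112 and 54 before and 24, 13 and 28 after in knockouts. Its averaged log2 change of -1.45 carried an SE of 0.44 (limma adjusted p = 0.0418), and this call was lost under 17 of 25 alternatives. The other 120 genes had medians of -0.08 and -0.16 and held 4, 13 and 20 of the calls. A list of 15 measured nuclear-retained and splicing-factor transcripts, drawn up after this order was seen, moved with it. The mean log2 intensity of the list on the wild-type control arrays was 8.78, 8.84 and 7.69, then 8.59, 7.34 and 7.85 after LPS, 8.16, 8.92 and 8.11 in knockout controls and 7.96, 7.21 and 8.37 after LPS. Its part in the Zfp values was not tested.

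**Figure D3:**
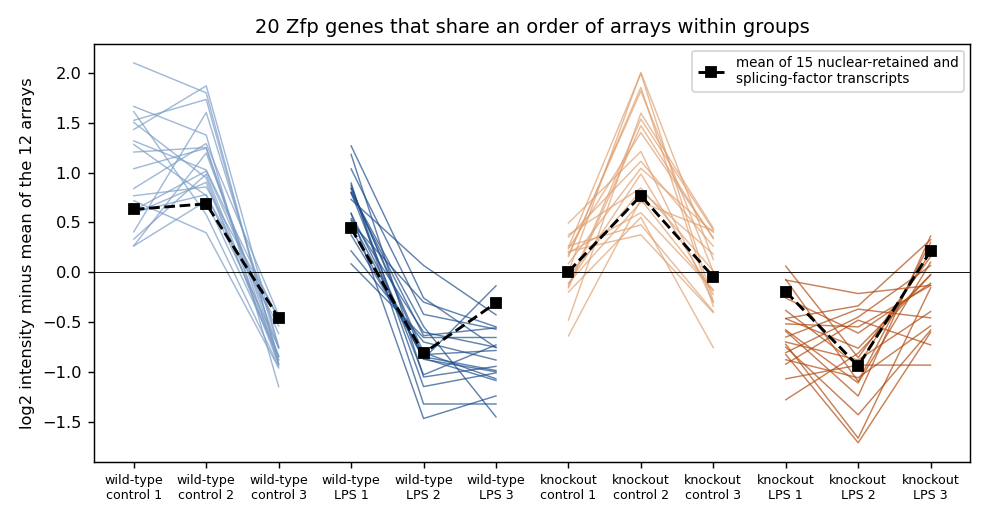
Log2 intensity minus the mean of the 12 arrays (y axis) for the 20 Zfp genes with the large shared order, with 1 thin line per gene within each group of 3 arrays (x axis), and for the mean of 15 nuclear-retained and splicing-factor transcripts (black squares, dashed). Wild-type control 3 is low and wild-type LPS 1 high within their groups, and the black line moves the same way.

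Knockout control 2 held the highest of the 12 values for 53 Zfp genes (34.0%, against 23.8% of all genes). Wild-type control 1 held it for 26 (16.7%, against 9.07%). Each of the 6 LPS arrays held it for 3 to 8 genes (1.92% to 5.13%, against 3.38% to 8.96% of all genes). Knockout controls 1 and 3 were as low, with 7 and 5 genes (4.49% and 3.21%, against 9.27% and 6.74%). Knockout LPS 2 held the lowest value for 29 (18.6%, against 9.27%). Knockout control 2 also had the highest median intensity of any array, 63 against 47 to 57, and its part in the Zfp values was not tested apart from the counts without it given above.

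**Figure D4:**
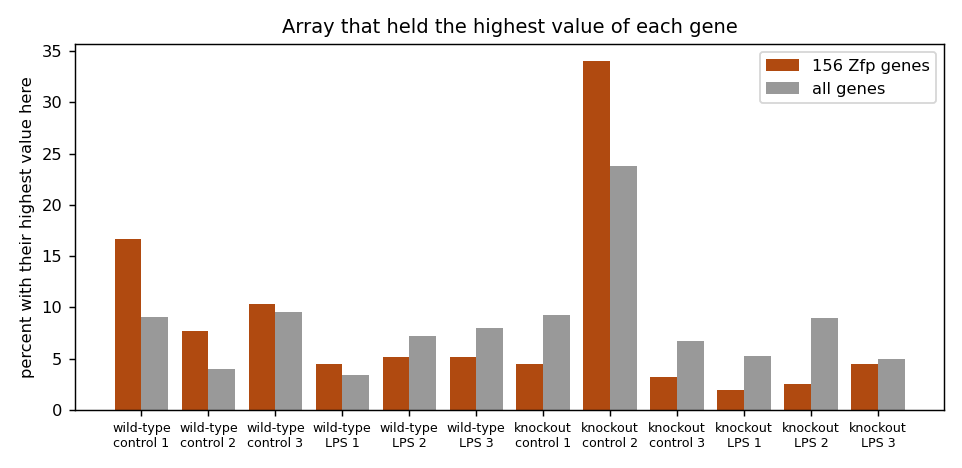
Percent of genes whose highest value lay on each of the 12 arrays (x axis), for the 156 Zfp genes and for all genes. Knockout control 2 held 34.0% of the Zfp maxima, the 6 LPS arrays held 1.92% to 5.13% each, and knockout controls 1 and 3 held 4.49% and 3.21%.

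Between genotypes no Zfp gene was called, in controls, after LPS or in the interaction. Over all genes 0.0% were called in controls and in the interaction, and after LPS 0.218% were higher and 0.145% lower in knockouts. At an unadjusted p under 0.05 in limma, 1 Zfp gene differed in controls, 10 after LPS and 5 in the interaction, which is 0.641%, 6.41% and 3.21% against 1.42%, 10.2% and 6.46% of all genes. With array quality weights, 10 were called after LPS (6.41%), against 9.12% of all probe sets under the same weights. In controls only Zfp14 had groups apart (14, 18 and 16 in wild-type against 13, 12 and 13 in knockouts), and 0.952% of all genes were likewise lower without overlap. After LPS 15 genes lay lower (9.62%, against 9.6%) and 6 higher (3.85%, against 8.73%) in knockouts without overlap.

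The smallest p after LPS was that of Zfp703, a transcriptional co-repressor gene amplified in luminal breast cancers. It gave 307, 218 and 303 without treatment and 146, 172 and 226 after LPS in wild-type mice, and 242, 241 and 358 in knockout controls and 420, 866 and 417 after LPS. After LPS the knockout values were all above the wild-type ones, by 2.99-fold (log2 difference 1.58, SE 0.31), without passing the threshold (limma adjusted p = 0.0764). With array quality weights it passed (log2 difference 1.24, adjusted p = 0.00719), and over the alternatives its adjusted p ran from 0.00719 to 0.295. The controls differed by 0.01 (SE 0.31), and the interaction was 1.57 (SE 0.44, limma adjusted p = 0.541).

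Zfp672 (56, 61 and 60 in wild-type LPS mice, 42, 26 and 20 in knockout LPS mice) and Zfp821 (44, 48 and 62 against 76, 80 and 71) came next and were not called (limma adjusted p = 0.265 and 0.376). The log2 differences were -1.08 (SE 0.32) and 0.57 (SE 0.20). In controls the smallest p-values were those of Zfp14 (log2 difference -0.33, SE 0.14), Zfp52 (-1.09, SE 0.55) and Zfp106 (-0.50, SE 0.28), all at a limma adjusted p of 1. In the interaction the smallest were those of Zfp703, Zfp106 (1.15, SE 0.39, limma adjusted p = 0.751) and Zfp672.

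**Figure D5:**
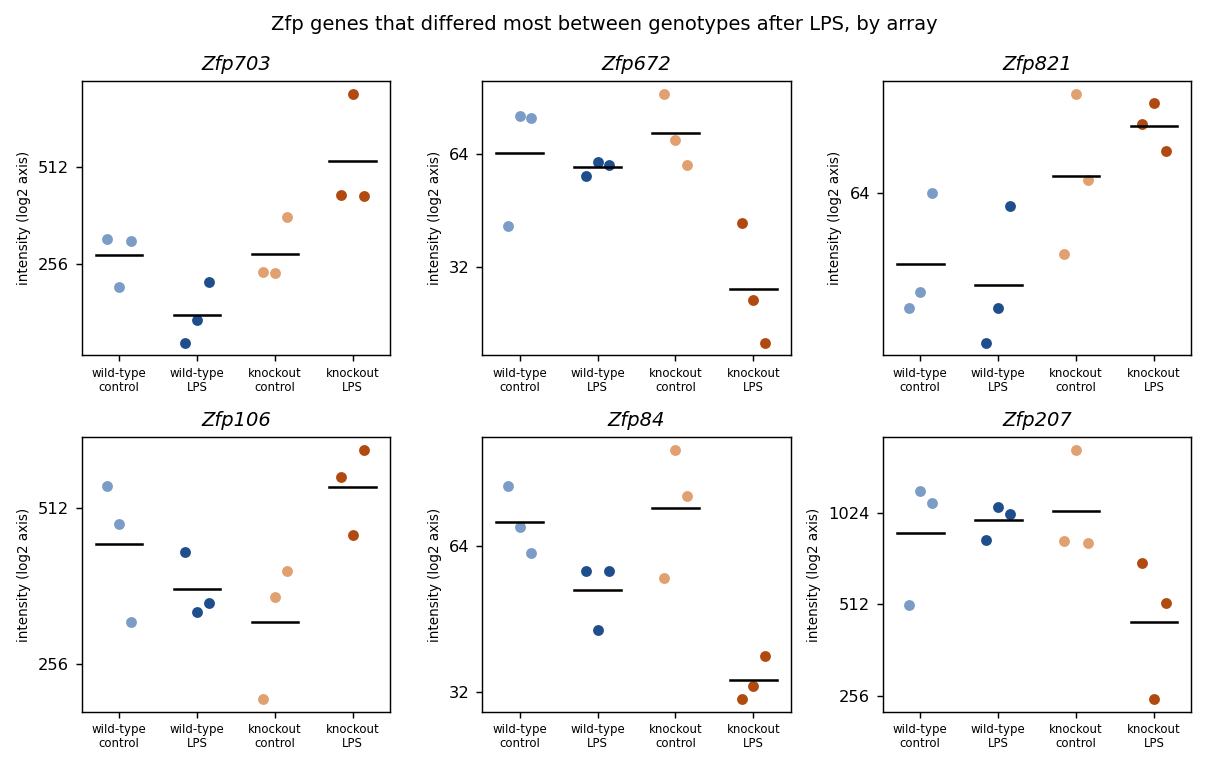
Intensity (log2 axis) of 6 Zfp genes on each of the 12 arrays, with 1 point per mouse and a bar at the geometric mean of each group of 3. With the chosen probe sets, Zfp703, Zfp106 and Zfp821 lie higher and Zfp672, Zfp84 and Zfp207 lower in knockouts after LPS without overlap. None of these differences passed the threshold.

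Zfp106, an RNA-binding protein needed by motor neurons, has 5 probe sets. The chosen one gave 563, 476 and 308 without treatment and 421, 322 and 336 after LPS in wild-type mice, and 219, 345 and 387 in knockout controls and 587, 454 and 662 after LPS (log2 change in knockouts 0.86, SE 0.28, limma adjusted p = 0.0706). Another read 47, 31 and 24 in knockout controls and 100, 70 and 96 after LPS, and was called higher (log2 change 1.42, SE 0.28, limma adjusted p = 0.0083). The remaining sets changed by 0.65, 0.16 and 0.12 in knockouts and were not called. The interaction was 1.15 with the chosen set, and 0.96, 0.65, 0.15 and -0.30 with the others, none of them called. Of the 53 genes with more than 1 probe set, 0 had sets called in both directions. Some sets were called and others not in 5 genes in knockout (Zfp84, Zfp106, Zfp276, Zfp704 and Zfp790) and in 8 averaged. The signs of a gene's probe sets differed in 25 of 53 in wild-type and 16 of 53 in knockout.

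A list of 33 Zfp genes with a known role, 26 of them measured, was examined gene by gene. Of these 1 was called in wild-type, 3 in knockout and 4 averaged, namely Zfp521, Zfp281, Zfp467 and Zfp598. Over all genes 4.16% fell and 3.93% rose in wild-type, 9.71% and 5.54% in knockout, and 14.3% and 8.52% averaged. The median changes of the 26 were -0.23 and -0.08, and 16 of 26 lay below 0 in each genotype. Zfp207, which helps load Bub3 at the spindle, gave 509, 1213 and 1107 without treatment and 835, 1073 and 1013 after LPS in wild-type mice, and 827, 1652 and 817 in knockout controls and 701, 250 and 517 after LPS. Only the knockout groups were apart (log2 change -1.21, SE 0.44, limma adjusted p = 0.106). The other probe sets of Zfp207 did not share this pattern, and 1 of them changed by -1.15 in wild-type and -1.18 in knockouts, without a call. The log2 difference between knockout and wild-type after LPS was -1.11 with the chosen set. With the others it was -0.42, -0.16, -0.15 and 0.01. Zfp318 read 299, 498 and 239, then 439, 178 and 175 in wild-type, and 181, 910 and 279, then 285, 234 and 564 in knockouts, with wide overlap and log2 changes of -0.46 and -0.10 (SE 0.60).

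Among nucleic acid-handling members, Zfp326, part of a complex that couples transcription to splicing, Zfp346, a double-stranded RNA binder, and Zfp622, a ribosome assembly factor, changed by -0.59, 0.05 and 0.04 in wild-type and by 0.16, -0.72 and -0.01 in knockouts, and none was called. Zfp91, a ubiquitin ligase of non-canonical NF-kB signalling, read 238 to 336 in wild-type LPS mice against 296 to 390 in controls, with a log2 change of -0.22 (SE 0.27, limma adjusted p = 0.771). Of its 3 probe sets, 1 was called higher with the genotypes averaged (log2 change 0.54), where the chosen set gave -0.15 without a call. Zfp410, which sustains Chd4 expression, changed by -0.24 and -0.36, and Zfp451, a SUMO ligase, by 0.08 and -0.11. Zfp42, a pluripotency marker, lay between 8 and 10 on all arrays. Zfp57 lay between 15 and 28 and Zfp423, a relative of Zfp521, between 10 and 21. Zfp568, a repressor of a placental Igf2 transcript, changed by 0.05 and -0.51 without a call.

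The 5 genes of highest mean intensity were Zfp207, Zfp106, Zfp740, Zfp91 and Zfp318. None was called with the chosen probe set. Zfp740 came nearest with the genotypes averaged (log2 change -0.51, SE 0.17, limma adjusted p = 0.0564), reading 342, 424 and 589 against 363, 334 and 313 in wild-type and 284, 426 and 483 against 264, 232 and 259 in knockouts.

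Many Zfp genes lie in clusters that arose by tandem duplication. In the RefSeq gene order, 82 of the 156 stood next to another Zfp gene and 74 did not. Of the 82, 13 fell with the genotypes averaged (15.9%), and of the 74, 7 did (9.46%), against 14.3% of all genes. Their median changes were -0.23 and -0.21, and the 3 risers all stood alone. The run with the most calls held Zfp14, Zfp30, Zfp82, Zfp84, Zfp566, Zfp568, Zfp790 and Zfp940, of which 4 fell (Zfp14, Zfp82, Zfp84 and Zfp790). The averaged call was lost under 18 of 24 alternatives for Zfp14, 1 of 25 each for Zfp84 and Zfp790 and 0 of 25 for Zfp82. Neighbouring Zfp genes often resemble each other in sequence, and cross-binding between their probe sets was not tested.

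The co-repressors that KRAB zinc finger proteins recruit were listed with other heterochromatin genes, and 27 of 32 were measured. For this and the next lists, the shares over all genes were 4.16% lower and 3.93% higher in wild-type, and 9.71% and 5.54% in knockout. In wild-type 1 was called, Daxx, a histone chaperone, which rose (log2 change 2.04). In knockout Daxx rose (2.61) and 5 fell, among them the maintenance methyltransferase Dnmt1 (-1.48), its partner Uhrf1 (-1.56) and Cbx1 (-0.83). The median change of the 27 was 0.09 in wild-type and -0.25 in knockout. Of 70 measured other C2H2 factors, 2 rose and 2 fell in wild-type and 6 rose and 7 fell in knockout, with medians of -0.04 and 0.03. Prdm1, the plasma cell regulator, rose by 1.04 and 1.87 in turn. Klf10, a TGF-beta response gene, fell by 1.34 and 1.56. Of 11 measured CCCH zinc finger genes, which bind RNA, 1 rose in wild-type and 2 in knockout. Zc3h12a, the nuclease that degrades cytokine mRNA, rose by 1.86 and 2.40. Of 20 genes known to rise with LPS, 18 rose in wild-type and 17 in knockout.

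Cell type markers moved in the same spleens, where 4.16% of all genes fell and 3.93% rose in wild-type, and 9.71% and 5.54% in knockout. Of 14 stromal markers, 3 fell in wild-type and 4 in knockout, among them Tcf21 (-3.47 and -4.12) and Tlx1 (-1.47 and -2.48), which mark splenic mesenchyme. The mean log2 intensity of the list ran from 7.49 to 8.03 in wild-type controls, 6.82 to 7.15 after LPS, 7.29 to 7.94 in knockout controls and 6.52 to 7.06 after LPS. Its part in the fall of Zfp521 was not tested. Of 12 B cell markers 0 fell in wild-type and 4 in knockout, and of 13 T cell markers 2 and 3 fell and Ccr7 rose in both. Of 13 macrophage markers 6 and 4 fell, and 1 rose in wild-type. Of 12 endothelial markers 3 and 5 fell, and 1 rose in knockout. Mean log2 intensity of the B cell markers ran from 9.61 to 10.1 in wild-type controls, 8.81 to 9.30 after LPS, 8.79 to 10.1 in knockout controls and 8.37 to 8.62 after LPS. The part of these lists in the other Zfp changes was not tested.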

How the data were processed

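Expression was measured in spleen of 12 mice on Affymetrix MOE430A 2.0 arrays from 5 µg total RNA each, per the labels' protocols. The authors processed the arrays with RMA, per the submitters' processing notes, with no version given in the sources used here, and deposited linear whole-number intensity values from 6 to 15228. The build and annotation used upstream are not given in the sources used here. Array precision is limited by the 3 mice in each group. Spleens came from individual mice.

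From the 22690 deposited probe sets, 64 controls were left out. Intensities were turned into log2 values and fitted with limma 3.58.1 (R 4.3.3), with 4 group means, over all 22626 probe sets. Spread had 8 residual and 2.722 prior degrees of freedom. Tests were two-sided with Benjamini-Hochberg adjustment over all probe sets and a threshold of 0.05, and the fit was tested on simulated data. Counts over all genes use 1 probe set per gene. Of the probe sets, 20380 named 1 gene, 691 several and 1555 none, in the platform's annotation. Of those with several genes 16 carry a Zfp symbol and were not used. All 156 genes matched RefSeq by gene ID. Among the chosen probe sets 3 end in _x_at, 6 in _s_at and 10 in _a_at.

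Genes named with values were those called (at most 12 per comparison and direction), the 5 of highest mean intensity, the 3 of smallest p in each genotype comparison, the role list, and genes whose probe sets disagreed. The genes and lists were chosen with earlier results of these data known. Genes of the shared array order and the nuclear-retained list were chosen after their values were seen. A planned count of fingers and KRAB domains in the proteins was not made, since no protein sequences were used here.

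Replicate numbers are not stated to pair mice. Deviations of same-numbered arrays correlated at 0.136 to 0.277 between the genotypes' controls, so every such pair passed 0.1. They correlated at -0.282 to 0.273 between wild-type control and LPS and at -0.272 to 0.061 between knockout control and LPS. Between the genotypes after LPS the range was -0.214 to 0.629. The highest values among differently numbered arrays were 0.175, 0.498, 0.265 and 0.616, in the same order of comparisons. Alternatives comprised other scalings, added constants, probe set filters, array weights, a replicate block, and leaving out each array and the arrays that stood apart.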

Additional observations from a re-analysis of the deposited data

How the results depend on the processing

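No called Zfp gene changed direction under the 24 or 25 alternatives fitted for it, and genes without a call were not all followed. Those for the averaged comparison were added after the data were seen. The 3 falls in wild-type became 10 with array quality weights and 5 without the 2 arrays rich in red cell precursor transcripts, and ran from 1 to 9 on leaving out 1 array. The 1 rise became 3 with weights and 0 with 32 added to every intensity or without the pancreas, male-pattern or red cell arrays, and ran from 0 to 2. The 13 falls in knockout became 7 with all arrays shifted to the same median, 8 with cyclic loess, 7 with 16 added, 6 with 32 added, 29 without the pancreas arrays, which keeps 1 knockout control, and 20 without the red cell arrays, and ran from 3 to 20. The 1 rise became 3 with the same median, 2 with loess, with the mean of a gene's probe sets or with weights, and 0 without the pancreas arrays, and ran from 0 to 2. Averaged, the 20 falls became 13 with the same median, with 32 added or without dim probe sets, which left 77 of the genes. They became 34 with weights, and ran from 11 to 29 on leaving out 1 array. Without the male-pattern arrays, which keeps 1 wild-type control, most of the 20 were no longer called and other genes were. Their averaged changes stayed negative there, as for Zfp276 (-0.73), Zfp467 (-0.75) and Zfp954 (-1.19). The 3 rises became 5 with the same median, loess or weights, and 0 without the pancreas or male-pattern arrays, and ran from 2 to 5. The cause was not tested. Genotype calls were 0 throughout, except 10 after LPS with weights, and 1 each in controls and in the interaction without the pancreas arrays, where 348 and 233 of all probe sets were called against that lone control. The knockout median of -0.24 became -0.027 with the same median, -0.10 with 32 added, -0.46 without dim probe sets and -0.52 without the pancreas arrays, and ran from -0.33 to -0.14. The wild-type median ran from -0.22 to -0.14 on leaving out 1 array. With the replicate number as a block, 2 fell and 1 rose in wild-type, 10 fell and 1 rose in knockout, 20 fell and 3 rose averaged, and 0 were called between genotypes or in the interaction. The block ended the calls of Zfp82 in wild-type (adjusted p = 0.0505) and of Zfp61, Zfp235, Zfp764 and Zfp954 in knockout. Compression at low signal was not tested.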
